A study of Mus musculus with 16 samples.

Results

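The classical pathway of complement is represented here by 8 genes, those of the C1 complex (C1qa, C1qb, C1qc, C1ra and C1s1), of its inhibitor (Serping1) and of the substrates that it cleaves (C2 and C4b). The members were chosen by name. All 8 were listed among the 19449 genes of the count table, and all 8 were among the 16269 genes that passed the filter on low counts and were tested. The classical pathway starts when C1q, a bundle of A, B and C chains, binds antibody, C-reactive protein, cell debris or other surfaces. The attached proteases C1r and C1s are then activated, cleave C4 and C2, and so build the convertase that activates C3, while the serpin C1 inhibitor inactivates both proteases. In brain tissue C1q is made mainly by microglia, C4 is well known in astrocytes, and C1q and C3 fragments are known for tagging synapses that microglia remove.

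RNA had been taken from the hippocampus of mice aged 3 months, and each of 4 groups held 4 libraries. Wild-type mice injected with PBS, wild-type mice injected with LPS, TSPOKO mice injected with PBS and TSPOKO mice injected with LPS formed the groups, named below wild-type PBS, wild-type LPS, knockout PBS and knockout LPS. LPS, or lipopolysaccharide, is a component of the bacterial outer membrane that activates innate immunity, and PBS is the salt solution used as its control. Tspo, the gene targeted in TSPOKO mice, encodes the translocator protein of the outer mitochondrial membrane. The series compared TSPOKO and wild-type hippocampus under each injection. The sources used here do not state the LPS dose, the route, the interval before collection, the strain or the knockout allele. Nothing in them says whether libraries of a group came from separate mice, so the p-values measure the spread between these libraries, which may be technical.

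Totals ran from 30198619 to 50009041 counts per library. Some libraries stood apart from their groups. Wild-type LPS replicate 1 lay within the range of the 12 libraries of the other groups for all 8 members, as described gene by gene below. Its title and that of wild-type PBS replicate 4 carry a common code of unstated meaning, whereas wild-type LPS replicates 2, 3 and 4 carry another code, which they share with knockout PBS replicate 4. The library labelled knockout PBS replicate 1 held 2.33 CPM of Tspo (CPM are counts scaled to a common library total), against 0.152, 0.28 and 0.47 CPM in the other knockout PBS libraries and 2.06 to 5.17 CPM in wild-type PBS. Choroid plexus markers, a list of 7 genes, summed to at most 14.5 CPM in wild-type PBS replicate 1 and wild-type LPS replicate 1 and to 564 CPM or more in all other libraries. Apart from the pair of wild-type PBS replicate 4 and wild-type LPS replicate 1, no code was common to both groups of a comparison, and the part of the codes in the results was not tested. Whether the labels of wild-type LPS replicate 1 and knockout PBS replicate 1 are right was not tested either. All libraries are grouped as labelled, and a wrong label would change the means, overlaps and fold changes of that group. Wild-type PBS replicates 2 and 3 were the most alike of all pairs within a group, with a chi-square of 4.03 per gene against 13.7 for the next pair. That is above sampling noise, so they were kept as separate libraries, and summing them was tried as an alternative. A value above sampling noise cannot show that they came from separate mice.

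Upstream sequence is shown for C1qb and C1qc because both were among the most abundant members and the gene Spi1, which encodes the myeloid transcription factor PU.1, was among the 5 genes most alike to each of them in level over the libraries. RefSeq promoter windows on GRCm38.p6, from 250 bases before to 50 bases after a start, were found for 4 of the 8 members (C1qb, C1qc, C1ra and C1s1). Capitals mark the PU.1 core GAGGAA, or TTCCTC where it lies on the other strand, a motif chosen after the data had been seen. The first sequence is chr4:136886201-136886450 and the second chr4:136893066-136893164, both on the minus strand, 5′ to 3′ and outside the annotated genes.
C1qb: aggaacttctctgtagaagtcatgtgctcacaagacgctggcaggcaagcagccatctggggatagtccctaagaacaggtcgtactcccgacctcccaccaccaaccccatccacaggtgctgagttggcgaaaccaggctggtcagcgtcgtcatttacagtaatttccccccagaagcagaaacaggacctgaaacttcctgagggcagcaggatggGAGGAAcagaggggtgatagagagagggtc
C1qc: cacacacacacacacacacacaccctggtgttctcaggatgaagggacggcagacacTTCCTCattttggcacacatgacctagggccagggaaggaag

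A short stretch of C1ra, chr6:124512641-124512670 on the plus strand, is shown because C1ra had the largest fold change of the members after LPS in wild type and its window alone held a STAT site (TTC, any 3 bases, then GAA). Capitals mark that site, which begins 33 bases after the RefSeq start, and a PU.1 core on the other strand.
C1ra: gcaaatgcttcaTTCCCTGAAacaTTCCTC

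The PU.1 core was present in 28.3% of the 32851 windows of the table on either strand, and the STAT site in 8.3%. The core of the interferon-stimulated response element (GAAA, any 2 bases, then GAAA) was found in none of the windows of these 4 genes and in 3.44% of all windows. C1s1 had 2 windows, and neither held any of the 3 motifs. A PU.1 core lay 30 bases before the C1qb start and began 193 bases before that of C1qc. These matches describe letters only, and the binding of no factor was measured.

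C1q, the recognition part of C1, was the most abundant part of the pathway per kilobase of transcript in every group. The genes lie side by side on the minus strand of chromosome 4 of GRCm38 in the GENCODE M21 annotation, C1qa (ENSMUSG00000036887) at 136895917 to 136898803, C1qc (ENSMUSG00000036896) at 136889804 to 136893065 and C1qb (ENSMUSG00000036905) at 136880129 to 136886187. All of their transcript sequence was unique at a word length of 31 bases.

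In wild-type PBS replicates 1 to 4, C1qa stood at 30.0, 28.8, 28.8 and 40.1 CPM. In wild-type LPS replicates 1 to 4 it stood at 31.2, 108, 102 and 91.4 CPM. Replicates 2, 3 and 4 lay above every PBS library and replicate 1 lay among them, so the groups overlapped. C1qa was higher after LPS in wild type by 1.38 ± 0.26 on the log2 scale (± SE, n = 4 libraries in each group; adjusted p = 0.00658, edgeR quasi-likelihood F test over all genes, as for every adjusted p below unless another tool is named). C1qb stood at 25.0, 27.1, 27.8 and 33.0 CPM in wild-type PBS and at 29.7, 87.3, 80.8 and 73.4 CPM in wild-type LPS. Its log2 fold change was 1.26 ± 0.23 (adjusted p = 0.00559), again with replicate 1 among the PBS libraries. C1qc stood at 25.4, 24.9, 22.1 and 28.9 CPM in wild-type PBS and at 24.2, 62.2, 55.7 and 54.5 CPM in wild-type LPS. It had the smallest log2 fold change of the 3 chains, 0.96 ± 0.21 (adjusted p = 0.0119).

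After LPS the knockout libraries lay within the range of the PBS libraries of both genotypes for C1qa and C1qb, and within or just above it for C1qc. C1qa stood at 31.7, 31.7, 34.1 and 32.6 CPM in knockout LPS and at 38.2, 30.8, 34.1 and 33.5 CPM in knockout PBS. C1qb stood at 30.1, 29.4, 29.0 and 29.6 CPM in knockout LPS and at 37.2, 27.5, 34.2 and 30.7 CPM in knockout PBS. C1qc stood at 29.4, 25.0, 30.9 and 24.7 CPM in knockout LPS and at 28.5, 25.5, 27.2 and 30.3 CPM in knockout PBS. None of the 3 passed the test between knockout LPS and knockout PBS, with log2 fold changes of -0.07 ± 0.26 for C1qa, -0.14 ± 0.23 for C1qb and -0.02 ± 0.2 for C1qc (adjusted p from 0.886 to 0.982). Between the LPS groups all 3 were lower in the knockout, by -1.36 ± 0.26 for C1qa, -1.2 ± 0.23 for C1qb and -0.84 ± 0.2 for C1qc (adjusted p = 0.00619, 0.00598 and 0.0181). Wild-type LPS replicate 1 lay below the highest knockout LPS library for each chain, so these groups overlapped too. The C1qc call rested on single libraries, since without wild-type LPS replicate 2, 3 or 4 its adjusted p was 0.0578, 0.0568 or 0.0526.

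**Figure D1:**
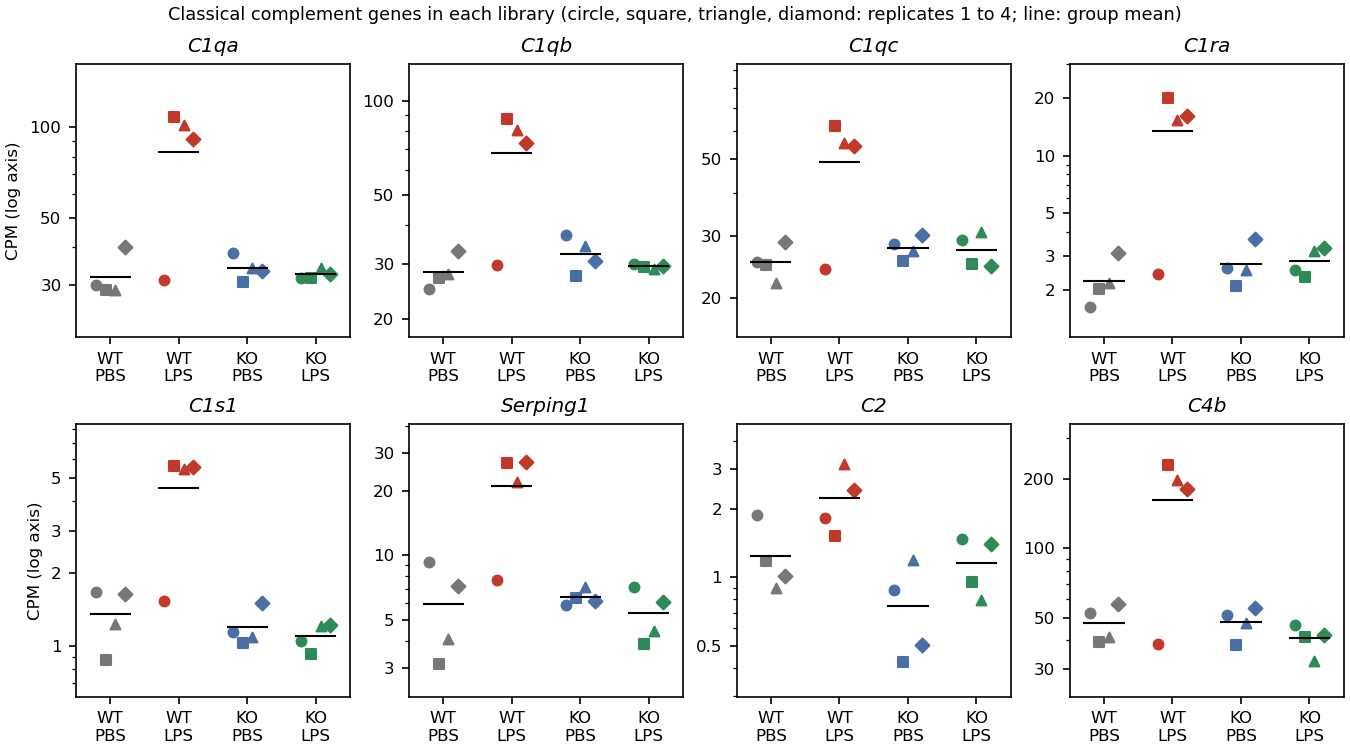
Level of each of the 8 genes in every library, in CPM on a logarithmic axis with a separate scale for each gene. Columns are the groups, symbols are replicates 1 to 4 and lines are group means; for 7 genes wild-type LPS replicates 2, 3 and 4 lie above all other libraries and wild-type LPS replicate 1 does not, while for C2 the libraries are mixed.

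The proteases C1r and C1s, which carry the catalytic activity of C1, were far scarcer than C1q. C1ra (ENSMUSG00000055172) lies at 124512405 to 124523443 on the plus strand of chromosome 6, and C1s1 (ENSMUSG00000038521) next to it at 124530345 to 124542359 on the minus strand. Both have near-identical copies beside them. Of the 31-base words of C1ra 56.9% also occur in C1rb, and of those of C1s1 33.5% occur in C1s2, so the assignment of reads between these copies is uncertain. C1s2 was tested and not called in any comparison, with a log2 fold change of 0.56 ± 0.43 between wild-type LPS and wild-type PBS (adjusted p = 0.459). C1rb was not found in the count table.

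C1ra stood at 1.62, 2.02, 2.16 and 3.12 CPM in wild-type PBS and at 2.41, 20.0, 15.3 and 16.2 CPM in wild-type LPS. Its log2 fold change of 2.59 ± 0.45 (adjusted p = 0.00454) was the largest of the 8 members in this comparison and ranked 73 from the top of 16269 genes. C1s1 stood at 1.68, 0.875, 1.23 and 1.65 CPM in wild-type PBS and at 1.53, 5.60, 5.46 and 5.55 CPM in wild-type LPS, a log2 fold change of 1.74 ± 0.33 (adjusted p = 0.0068). Replicates 2, 3 and 4 of wild-type LPS lay close together for C1s1, and replicate 1 lay within the PBS range for both proteases.

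In the knockout neither protease passed the LPS test. C1ra stood at 2.53, 2.34, 3.18 and 3.31 CPM in knockout LPS against 2.61, 2.09, 2.55 and 3.66 CPM in knockout PBS (log2 fold change 0.06 ± 0.44, adjusted p = 0.977). C1s1 stood at 1.05, 0.926, 1.21 and 1.22 CPM against 1.14, 1.03, 1.09 and 1.51 CPM (-0.12 ± 0.34, adjusted p = 0.937). Between the LPS groups the knockout was lower by -2.25 ± 0.44 for C1ra (adjusted p = 0.00637) and by -2.05 ± 0.34 for C1s1 (adjusted p = 0.00357). For C1s1 even wild-type LPS replicate 1, at 1.53 CPM, lay above the 4 knockout LPS libraries, so the groups did not overlap.

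C1 inhibitor, the product of Serping1 (ENSMUSG00000023224; chromosome 2, 84765387 to 84775444, minus strand), is the serpin that shuts off C1r and C1s. Its level was 9.37, 3.14, 4.08 and 7.22 CPM in wild-type PBS, the widest spread in that group relative to the mean among the 8 genes, and 7.66, 27.1, 21.9 and 27.3 CPM in wild-type LPS. The inhibitor thus moved in the same direction as the proteases it blocks, by 1.82 ± 0.37 on the log2 scale (adjusted p = 0.0097). Serping1 is well known in fibroblasts, and the summed level of 8 fibroblast and meningeal markers was 275 CPM in wild-type PBS replicate 1 and 141 CPM in each of replicates 2 and 3. Replicate 1 was the highest and replicates 2 and 3 the lowest wild-type PBS libraries for both measures. In wild-type LPS those markers summed to 214, 178, 168 and 236 CPM, and none of the 8 passed the test between wild-type LPS and wild-type PBS. The markers summed to 193, 152, 228 and 210 CPM in knockout PBS and to 230, 154, 208 and 169 CPM in knockout LPS. In knockout LPS replicate 1 was the highest and replicate 2 the lowest library for both measures. In knockout PBS replicate 3 was the highest for both. The order of the remaining libraries differed between the measures in each knockout group. The part of these markers in the Serping1 values was not tested. In knockout LPS Serping1 stood at 7.15, 3.88, 4.44 and 6.08 CPM and in knockout PBS at 5.91, 6.34, 7.14 and 6.11 CPM (log2 fold change -0.24 ± 0.37, adjusted p = 0.876). Between the LPS groups the knockout was lower by -1.96 ± 0.37 (adjusted p = 0.00587), and every wild-type LPS library lay above every knockout LPS library.

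C4b (ENSMUSG00000073418; chromosome 17, 34728380 to 34743882, minus strand), the mouse C4 gene whose product is cleaved first by C1s, was the most abundant member by CPM. It stood at 52.2, 39.3, 41.1 and 57.5 CPM in wild-type PBS and at 38.6, 231, 197 and 181 CPM in wild-type LPS, a log2 fold change of 1.77 ± 0.36 (adjusted p = 0.00975). Wild-type LPS replicate 1 lay below all 4 PBS libraries while the other replicates lay far above them. In knockout LPS the libraries held 46.7, 41.2, 32.4 and 42.2 CPM and in knockout PBS 51.6, 38.1, 47.4 and 54.9 CPM (log2 fold change -0.24 ± 0.36, adjusted p = 0.871). Between the LPS groups C4b was lower in the knockout by -2.0 ± 0.37 (adjusted p = 0.0053). Of the 31-base words of C4b 48.3% also occur in C4a, a neighbouring copy that was not found in the count table. Counts of C4b may therefore include or lack reads of that copy.

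C2 (ENSMUSG00000024371; chromosome 17, 34862604 to 34898265, minus strand), which C1s cleaves once it is bound to cleaved C4, completing the convertase, was the member not called in any comparison. It was also the least deeply counted, with 14 to 108 counts per library, and 40.2% of its 31-base words also occur in the gene model Gm20547. C2 stood at 1.89, 1.18, 0.896 and 1.01 CPM in wild-type PBS and at 1.83, 1.52, 3.17 and 2.43 CPM in wild-type LPS (log2 fold change 0.84 ± 0.34, adjusted p = 0.144). In knockout PBS it stood at 0.878, 0.425, 1.20 and 0.503 CPM, and in knockout LPS at 1.48, 0.951, 0.795 and 1.40 CPM (0.61 ± 0.36, adjusted p = 0.71). All knockout LPS libraries lay below all wild-type LPS libraries, and the log2 fold change of -0.95 ± 0.34 between them missed the threshold (adjusted p = 0.085). DESeq2 and limma-voom with sample weights put the same difference past it, at adjusted p = 0.0489 and 0.0117.

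Over the pathway, 7 of the 8 members were higher and none lower in wild-type LPS than in wild-type PBS. The background share of genes called higher was 4.72%, and 8.57% of the 16269 tested genes were called in either direction. The median log2 fold change was 1.56 over the 8 members and 0.0 over all genes. In the knockout 0 of 8 members were called between LPS and PBS by edgeR, 0 by DESeq2, 0 by limma and 0 at an unadjusted p below 0.05, beside a background of 0.0% called. Between knockout and wild type under LPS 7 of 8 were lower and none higher, beside 7.28% of genes called lower and 11.9% called either way. Serping1, C1s1 and C2 were the 3 members with groups that did not overlap, and 6.98% of all genes were lower with no overlap. These comparisons share libraries: the wild-type LPS group enters both of those with calls, so their values are not independent of each other.

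Genotype alone, between knockout PBS and wild-type PBS, gave 0 of 8 calls by edgeR, by DESeq2 and by limma and 0 at an unadjusted p below 0.05, and 0.0369% of all genes were called. Fold changes ran from -0.71 ± 0.36 for C2 (adjusted p = 0.918) to 0.28 ± 0.44 for C1ra (adjusted p = 0.943) on the log2 scale.

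Whether the LPS difference itself differed by genotype was tested by the interaction. Log2 estimates were -1.46 ± 0.37 for C1qa, -1.4 ± 0.32 for C1qb, -0.98 ± 0.29 for C1qc, -2.53 ± 0.62 for C1ra, -1.85 ± 0.47 for C1s1, -2.06 ± 0.52 for Serping1, -2.01 ± 0.51 for C4b and -0.24 ± 0.5 for C2. None of the 8 was called by edgeR, since the 7 members other than C2 had adjusted p from 0.0514 to 0.0828, and 1.15% of all genes were called. At an unadjusted p below 0.05 there were 7, and DESeq2 and limma-voom with sample weights each called 7. The larger fold change in wild type was therefore not shown to differ by genotype at the threshold set, and that call turned on the tool and on single libraries.

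**Figure D2:**
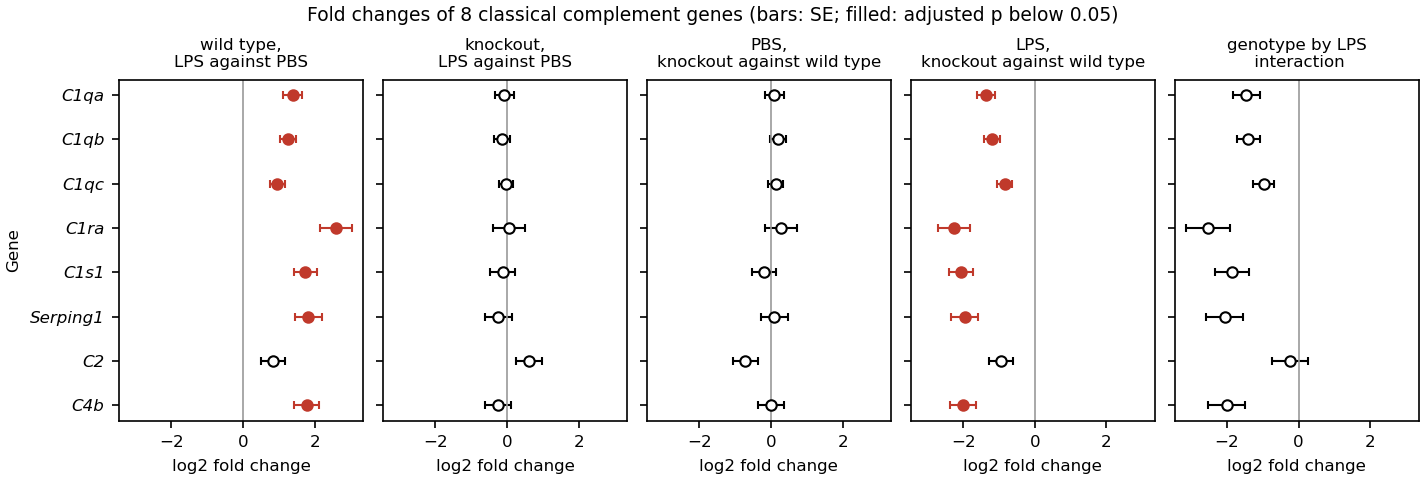
Log2 fold change of each of the 8 genes in the 4 comparisons and the interaction; points are estimates, bars are SE and filled points have an adjusted p below 0.05. In wild type after LPS 7 points are filled to the right, and 7 to the left between the LPS groups, and none in the other 3 panels.

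The calls changed with the set of libraries fitted. Those of the interaction also changed with single libraries left out, among them wild-type LPS replicate 1, as did the C1qc call between the LPS groups. When only the 8 libraries of each comparison were fitted, with the same fold changes, 0 members were called in wild type after LPS (8 at an unadjusted p below 0.05, adjusted p from 0.0859 to 0.199), and 2, C1s1 and Serping1, between the LPS groups (adjusted p = 0.0427 and 0.0448). Without wild-type LPS replicate 1, 7 were called in each of these comparisons and 7 in the interaction, with C1qa at 1.65, C1ra at 2.94 and C4b at 2.09 on the log2 scale in wild type. Leaving out both wild-type LPS replicate 1 and knockout PBS replicate 1, the library with Tspo at a wild-type level, gave the same 3 counts. Without 3 libraries set apart (wild-type PBS 1, wild-type LPS 1 and knockout PBS 1, a choice made after seeing the data), 8 members were higher in wild-type LPS, 7 lower in knockout LPS and 7 called in the interaction.

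Levels per kilobase of the longest protein-coding transcript allowed the members to be ordered. In wild-type PBS, C1qa stood at 30.7 ± 5.28, C1qb at 26.0 ± 3.14 and C1qc at 21.1 ± 2.33 CPM per kb (mean ± SD, n = 4), with neighbours in that order less than the sum of their SDs apart. C4b followed at 8.83 ± 1.63 and Serping1 at 3.37 ± 1.62 CPM per kb. C1ra, C2 and C1s1 came last at 0.748 ± 0.212, 0.47 ± 0.168 and 0.461 ± 0.13 CPM per kb, and C2 and C1s1 did not differ beyond their spread. In wild-type LPS the first 6 places were held by the same genes in the same order, from C1qa at 80.0 ± 34.0 to C1ra at 4.52 ± 2.56 CPM per kb, and C1s1 at 1.54 ± 0.681 stood above C2 at 0.848 ± 0.276. The 8 genes together took 128 to 172 ppm of all counts in the 12 libraries of the other groups, and 135, 543, 500 and 463 ppm in wild-type LPS replicates 1 to 4.

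Ratios between members were read in each library. The ratio of C1qa to C1qc counts, which does not depend on library scaling, was 1.08 to 1.39 over the 12 libraries of the other groups and 1.29, 1.73, 1.84 and 1.68 in wild-type LPS replicates 1 to 4. C1ra and C1s1 counts together came to 3.58 to 5.47% of the C1q counts in those 12 libraries and to 4.63, 9.94, 8.69 and 9.91% in wild-type LPS. C4b counts were 0.345 to 0.649 times those of C1q, and 0.453, 0.899, 0.826 and 0.824 times in wild-type LPS. Each of these 3 ratios was higher in wild-type LPS replicates 2, 3 and 4 than in every library of the other groups, and not in replicate 1. The same held for C1qb to C1qc, at 1.4, 1.45 and 1.35 in replicates 2, 3 and 4 against at most 1.3 in the other groups. It also held for C1qa to C1qb, at 1.23, 1.27 and 1.25 against at most 1.21. For C1ra to C1s1 the values were 3.57, 2.8 and 2.91 against at most 2.71. Serping1 to C1ra and C1s1, and C4b to C2, did not follow this pattern. Serping1 to C1ra and C1s1 was 1.01 to 2.83 in the other groups and 1.95, 1.06, 1.06 and 1.26 in wild-type LPS. C4b to C2 was 27.7 to 109 in the other groups and 21.1, 152, 62.3 and 74.3 in wild-type LPS. In 4 exact two-sided permutation tests on 4 against 4 libraries, which cannot give a p below 0.0286, the log2 ratio of C1qa to C1qc was higher by 0.37 in wild-type LPS than in wild-type PBS (p = 0.0857, adjusted p = 0.152) and lower by -0.45 in knockout LPS than in wild-type LPS (p = 0.0571, adjusted p = 0.152). The same exact permutation tests gave 0.66 (p = 0.114) and -0.02 (p = 0.971) for C1ra to C1s1, so none of the 4 passed.

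In bulk tissue, fewer cells of a type and less RNA per cell cannot be told apart, so the C1q genes were set beside microglial genes. Over 13 microglial markers, 1 was higher (Tyrobp) and 2 lower (P2ry12 and Fcrls) in wild-type LPS than in wild-type PBS, with a median log2 fold change of -0.05. Their summed level was 302 to 386 CPM in the 12 libraries of the other groups and 301, 387, 320 and 327 CPM in wild-type LPS, and none was at 0. C1q counts were 0.985 to 1.3 times those of Csf1r, the receptor that microglia need to survive, in the other groups, and 1.2, 2.27, 2.5 and 2.18 times in wild-type LPS. Against P2ry12, a purinergic receptor of resting microglia that itself was lower by -1.35 ± 0.33 (adjusted p = 0.0217), the ratio was 3.21 to 5.34 and then 4.25, 42.5, 38.9 and 44.1. Wild-type LPS replicates 2, 3 and 4 thus lay above all libraries of the other groups in both ratios, and replicate 1 lay within their range.

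**Figure D3:**
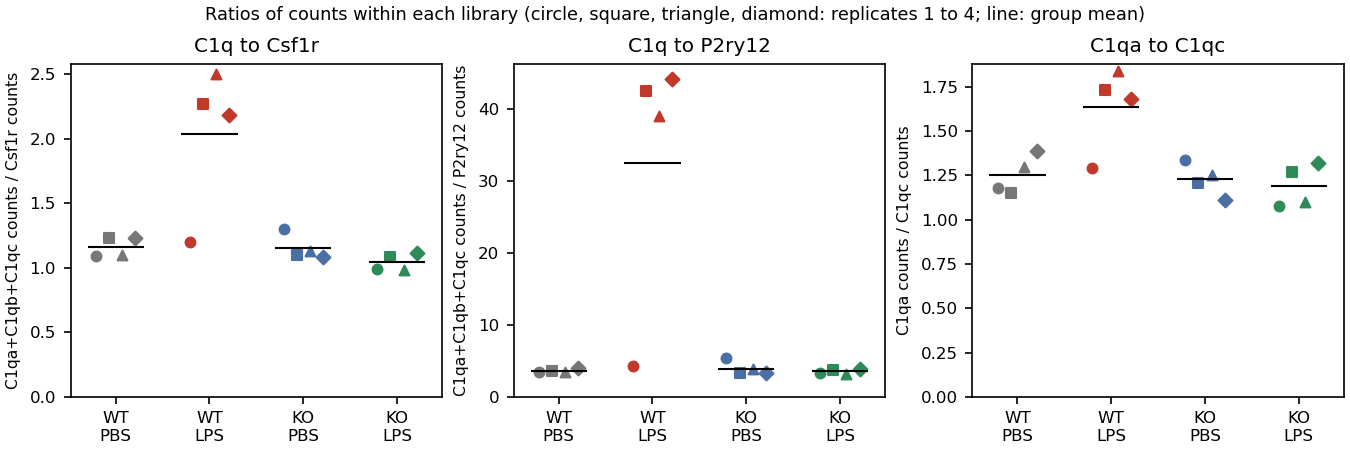
Counts of C1qa, C1qb and C1qc together divided by those of the microglial genes Csf1r and P2ry12, and C1qa divided by C1qc, in every library (linear axes from 0; symbols are replicates 1 to 4 and lines are group means). Wild-type LPS replicates 2, 3 and 4 stand above all libraries of the other groups in each panel, and replicate 1 lies within their range.

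Markers of other cells differed as well, some in the same 3 libraries and some in all 4. Neutrophil and monocyte markers summed to 11.7, 10.6 and 16.3 CPM in wild-type LPS replicates 2, 3 and 4, to 2.14 CPM in replicate 1 and to 0.98 to 2.56 CPM in the other groups, and 3 of the 5 tested were called higher in wild-type LPS. They summed to 1.24 to 2.56 CPM in knockout LPS and to 0.98 to 1.54 CPM in knockout PBS. Between those groups their median log2 fold change was 1.7, and none of the 5 was called. Border macrophage markers summed to 9.25, 11.3, 10.2 and 12.4 CPM in wild-type LPS replicates 1 to 4 and to 4.52 to 8.38 CPM elsewhere, with 3 of 6 called higher. Of 8 astrocyte markers 2 were called higher, among them Gfap by 1.68 ± 0.34 (adjusted p = 0.00919), and C4b counts relative to the 8 markers were 0.00701 to 0.0145 in the other groups and 0.00892, 0.0438, 0.0406 and 0.0349 in wild-type LPS. Of 7 oligodendrocyte markers 5 were called lower in wild-type LPS, among them Ugt8a, which makes a myelin lipid, by -1.75 ± 0.23 (adjusted p = 0.00251) and the myelin gene Mog by -1.28 ± 0.18 (adjusted p = 0.00251), and the median was -0.89. Their mean log2 level relative to wild-type PBS was -0.94, -0.48, -1.15 and -1.62 in wild-type LPS replicates 1 to 4 and -0.31 to 0.12 in the other groups, so replicate 1 was low in these genes too. The part of these cell types in the levels of the members was not tested.

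Other complement genes were read by role, from lists whose choice was made with earlier results known. Of the lectin pathway starters, which join the cascade at the same C4 and C2, 0 of 4 tested were called in wild type after LPS. Another 2 of their genes were in the count table without passing the filter, and Mbl1, Mbl2 and Colec10 were not found in it. The median log2 fold change of the 4 was 0.06. The largest, 1.18 ± 0.36 for Colec11, missed the threshold (adjusted p = 0.0575). Colec11 stood at 0.203 to 0.426 CPM in wild-type PBS and at 0.583 to 1.22 CPM in wild-type LPS. Of C3 and the terminal pathway 1 of 4 was higher. That gene was C3, the protein that the classical convertase cleaves, at 1.2 ± 0.416 CPM in the wild-type PBS group against 34.9 ± 30.1 CPM in the wild-type LPS group, whose libraries ran from 0.0305 to 67.2 CPM. The lowest was replicate 1, whose C3 and terminal pathway genes together summed to 2.17 CPM. For C3 it lay below every library of the other groups, which held 0.663 CPM or more. The log2 fold change of C3 was 4.85 ± 0.97 (adjusted p = 0.0086). Between the LPS groups C3 was lower in the knockout by -5.06 ± 0.98 (adjusted p = 0.00618).

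Of 14 regulators of the convertases and of later steps 2 were higher in wild-type LPS and the median was -0.09. Clu, the gene of clusterin, which binds terminal complexes, was among them (0.4 ± 0.11, adjusted p = 0.0394). Among 12 receptors and binding partners 6 were higher and none lower, with a median of 0.4. C5ar1 and C3ar1, the receptors of the C5a and C3a fragments, were higher by 2.69 ± 0.5 (adjusted p = 0.00608) and 2.23 ± 0.42 (adjusted p = 0.00649). Itgam and Itgb2, the chains of complement receptor 3 through which microglia bind C3 fragments, were higher by 1.29 ± 0.27 (adjusted p = 0.0107) and 1.5 ± 0.31 (adjusted p = 0.01).

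C1q-like proteins share the globular C1q fold but act at synapses rather than in complement. Of 6 tested, 1 was called in wild type after LPS, C1ql1, and it was lower by -0.92 ± 0.16 (adjusted p = 0.00415), with 7.09 ± 0.531 CPM in wild-type PBS against 3.76 ± 1.0 CPM after LPS. Of 2 immunoglobulin heavy chain constant genes tested, whose products are ligands of C1q, none was called. Genes that report interferon and IL-6 signalling were higher in 9 of 10 cases, among them Irf7 by 3.37 ± 0.55 (adjusted p = 0.00359) and Socs3 by 1.69 ± 0.29 (adjusted p = 0.00455). In the knockout no gene of any of these lists was called between LPS and PBS. Under LPS the knockout was lower for 1 of 4 in the C3 list, 2 of 14 regulators, 5 of 12 receptors and 9 of 10 interferon and IL-6 genes, and it was higher for C1ql1 by 0.92 ± 0.15 (adjusted p = 0.00366).

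**Figure D4:**
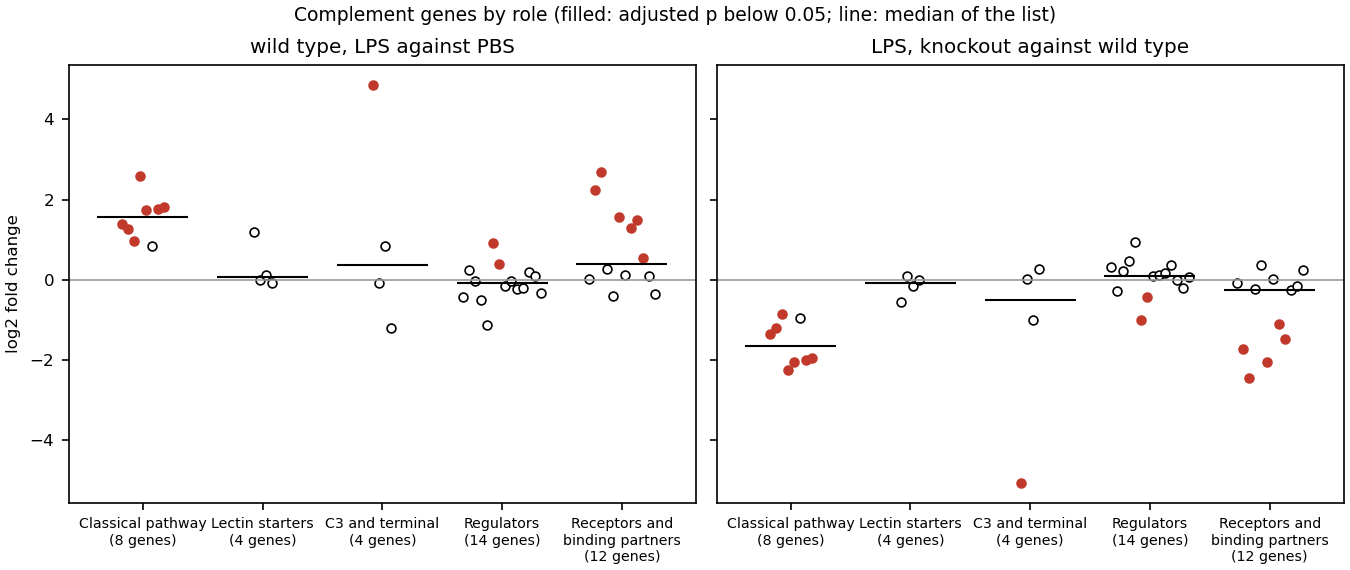
Log2 fold change of the tested complement genes by role, in wild type after LPS and between knockout and wild type under LPS; each point is a gene, filled where its adjusted p is below 0.05, and lines are medians. The classical pathway median is 1.56 in the first panel, and C3 at 4.85 is the highest point there.

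The 5 genes most alike to each member in log2 CPM over the 16 libraries, among non-member genes with a mean log2 CPM of at least 1, were named with no test. Psmb8, an immunoproteasome subunit, was the closest to C1qa (Pearson r = 0.99), C1qc (0.981) and C1ra (0.984). Fcgr3, an Fc receptor, was the closest to C1qb (0.983), and Spi1 was among the 5 for C1qb (0.977) and C1qc (0.976). Tapbp, a peptide-loading factor for MHC class I, was the closest to C1s1 (0.975) and Serping1 (0.965), and Capg, an actin-capping protein gene, to C4b (0.99). C2 had Prg4 as its closest gene (0.917). These are descriptions over libraries that share their groups.

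The members were also compared outside wild-type LPS. Over the 12 libraries of the other groups 28 pairs of members were compared, with 23 positive Pearson correlations. C1qa with C1qb was the pair that passed after adjustment (r = 0.83, permutation p = 0.00112, adjusted p = 0.0314; Spearman's rho = 0.83, permutation p = 0.00172, adjusted p = 0.0482), and r was 0.75 without the 2 libraries farthest from the median.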

How the data were processed

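RNA sequencing of mouse hippocampus covered 16 libraries, in 4 groups of 4 taken with their replicate numbers from the labels. The deposited table gives an estimated count per gene and library as whole numbers; the submitters' processing notes name Salmon 1.9.0, MultiQC 1.13, DESeq2 and DESeq without their roles, and the build the authors used is not given in those notes or the labels. Gene names, lengths and coordinates came from GENCODE M21 on GRCm38, and promoter windows from RefSeq. edgeR 4.0.16 (R 4.3.3) with filterByExpr kept 16269 genes and TMM scaled the libraries. A quasi-likelihood model over all 16 libraries gave 4 comparisons and the interaction, adjusted over all genes by Benjamini-Hochberg at 0.05. The SE is the log2 fold change divided by the square root of F. CPM used TMM-scaled totals, and log2 CPM a prior count of 2. The errors come from the spread between libraries, which includes counting error.

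The text names all 8 members, Tspo, up to 4 called genes per list by smallest p, and the 5 genes most like each member; some items that this rule names are not reported here. Called genes of 5 or fewer per marker list, Csf1r, C1s2 and Colec11 were named beside that rule, after their values were seen. The members, lists and rules were chosen with earlier results of these data known. Alternatives were RLE scaling, other filters, DESeq2 1.42.0, limma 3.58.1, a replicate block, fits of 8 libraries, libraries left out, and wild-type PBS replicates 2 and 3, the closest pair, summed. The pipeline was tested on simulated data.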

Additional observations from a re-analysis of the deposited data

Results flagged for a closer look

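Of 32 sets of 4 libraries (8 members in 4 groups), 2 held a library far from the other 3 by Dixon's criterion, which chance alone flags in about 1 in 20 sets. C1qa in wild-type PBS replicate 4 stood at 40.1 CPM against 28.8 to 30.0 CPM in the other wild-type PBS libraries, a gap of 0.894 of the range. C1s1 in wild-type LPS replicate 1 stood at 1.53 CPM against 5.46 to 5.60 CPM in the other wild-type LPS libraries, a gap of 0.966 of the range.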

How the results depend on the processing

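In wild type after LPS the number of members called was 7, 0 with only the 8 libraries compared, and 8 without 3 libraries set apart. Between the LPS groups it was 7, and 2 with only the 8 libraries compared. In the interaction it was 0, and 7 with DESeq2, 7 with limma-voom and sample weights, 7 without wild-type LPS 1 and knockout PBS 1 together, and 7 without 3 libraries set apart (a choice made after seeing the data). Leaving out each library in turn gave 7 in wild type after LPS, 6 to 7 between the LPS groups and 0 to 7 in the interaction (7 without wild-type LPS replicate 1, 6 without wild-type PBS replicate 4 and 1 without wild-type PBS replicate 1). No fold change called in the fit of 16 libraries changed sign under any alternative. The cause of these changes was not tested.

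With the replicate block the members called were 7 in wild type after LPS, 7 between the LPS groups and 0 in the interaction, so no member count changed. Of 24 same-numbered pairs of libraries from different groups 8 had deviations that correlated above 0.1 (range -0.386 to 0.436), and 6 of 16 libraries were closest to a library of their own number, so the numbers were not taken to pair the samples.

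Counts over all genes moved more. In wild type after LPS 1394 genes were called, against 0 with only the 8 libraries compared, 670 with wild-type PBS 2 and 3 summed, 2150 with DESeq2, 4684 with limma, 2998 without 3 libraries set apart and 3271 without wild-type LPS 1 and knockout PBS 1 together, and 538 to 3380 with a library left out. Between the LPS groups the count was 1935, against 438 with 8 libraries, 4073 with limma, 3907 in both fits that drop several libraries and 858 to 4005 with a library left out. In the interaction it was 187, against 63 with RLE scaling, 42 with a CPM of at least 1 in 4 libraries, 39 with no filter, 0 with the replicate block, 0 with wild-type PBS 2 and 3 summed, 1300 with DESeq2, 4029 with limma, 2116 and 2400 in the fits that drop several libraries and 0 to 2655 with a library left out. Between the PBS groups it was 6, against 3 with the replicate block, 1 with wild-type PBS 2 and 3 summed, 19 with DESeq2, 308 with limma and 1 to 9 with a library left out. In the knockout it was 0, against 3 with DESeq2 and 0 to 1 with a library left out. Depth was lowest for C2, at 14 to 108 counts per library, and its part in the C2 errors was not tested.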
